A study of Arabidopsis thaliana with 28 samples.

Results

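The genes described here are the 9 Arabidopsis genes for the E2F, DP and RBR cell cycle regulators, chosen by name and not by their measured values: E2FA (AT2G36010), E2FB (AT5G22220), E2FC (AT1G47870), DPA (AT5G02470), DPB (AT5G03415), RBR1 (AT3G12280), DEL1 (AT3G48160), DEL2 (AT5G14960) and DEL3 (AT3G01330). Earlier results of these data were known when the 9 genes and the pathway lists below were chosen. The 9 genes belong to the 33201 genes of the deposited expression table, and all 9 passed the filter on low values. RNA was sequenced from 28 samples of cells sorted by fluorescence from root tips of Col-0 seedlings, 5 days old, to ask how the stem cell types of the root differ from each other and from the cells around them. Each sample is labelled as a biological replicate. All lines carried a fluorescent reporter in the Col-0 background and were otherwise untreated. AGL42:GFP marked the whole stem cell niche (SCN, n = 4), CYCD6:GFP the cortex endodermis initials (CEI, n = 3) and CVP2:NLS:VENUS the protophloem (Protophlo, n = 4). FEZ:FEZ:GFP marked the initials of epidermis and lateral root cap (Epi/LRC, n = 3), the enhancer trap J2341:GFP the columella stem cells (CSCs, n = 3), TMO5:3xGFP the xylem stem cells (Xyl, n = 4) and WOX5:GFP the quiescent center (QC, n = 3). Their reference was NSCs (n = 4), the cells of the AGL42:GFP line that carried no GFP. The study describes them as cells of the meristem without most of the stem cells. Among markers of differentiated cells, CASP1 averaged 571 FPKM in NSCs, COBL9 10.6 and GL2 3.43, so NSCs need not be meristem cells alone. A population holds whatever cells its reporter marks, so SCN overlaps the other types and a reporter active outside the stem cells brings those cells in.

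In plants, as in animals, E2F transcription factors bind DNA as dimers with a DP protein and control genes needed for DNA replication. RBR1, the Arabidopsis homologue of the retinoblastoma protein, binds E2Fs and holds their targets silent until cyclin D and its kinase CDKA;1 phosphorylate it. E2FA and E2FB are known mainly as activators and E2FC mainly as a repressor of cell division. The atypical E2Fs, DEL1, DEL2 and DEL3, carry a pair of DNA-binding domains, bind without a DP partner and have no known activation domain. In the root, RBR1 is known to restrain stem cell number and the division of the quiescent center, and E2F complexes with RBR1 and MYB3R proteins form the plant DREAM complex.

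The values are FPKM, fragments scaled to the length of the transcript and to the mapped fragments of the sample, so levels can be compared between genes. The table holds no read counts, and the depth behind each value is therefore unknown. Fold changes were fitted with limma on log2(FPKM + 1), which understates the change of genes with low values, and a gene was called at an adjusted p (Benjamini-Hochberg, over all 22694 genes tested) under 0.06 and a fold change above 2. A value of 0 is given as listed at 0, since of 5775 genes with a median of at least 20 FPKM between 1 and 84 in each sample were also listed at 0. The reporter genes were checked first. TMO5 stood at 851 to 1340 FPKM in Xyl, against 5.75 to 16.4 in NSCs, and WOX5 at 127 to 264 FPKM in QC, against 1.28 to 6.95 in NSCs. By its name the FEZ:FEZ:GFP reporter carries FEZ itself, so its own transcripts may count towards FEZ. FEZ stood at 72.3 to 262 FPKM in Epi/LRC, against 0.695 to 2.59 in NSCs. The 4 Epi/LRC markers (FEZ, SMB, BRN1 and BRN2) were split there, with 1 called higher than in NSCs and 2 lower. They summed to 122 to 449 FPKM in Epi/LRC, against 302 to 582 in NSCs. BRN1 averaged 25.4 ± 23.7 FPKM in Epi/LRC, against 230 ± 50.2 in NSCs, and BRN2 25.4 ± 25.4, against 172 ± 67.5. AGL42 stood at 4.73 to 31.9 FPKM in SCN, against 1.05 to 2.6 in NSCs, and 3 genes known from columella stem cells (ACR4, WIP4 and WIP5) summed to 108 to 163 FPKM in CSCs, 166 to 214 in QC and 0.411 to 1.02 in NSCs. CVP2 went against its label, with 0 to 5.22 FPKM in the population labelled Protophlo and 10.5 to 26.5 FPKM in Xyl. The 7 protophloem markers summed to 6.31 to 10.9 FPKM in Protophlo, against 10.7 to 28.8 in NSCs, and markers of differentiated cells (CASP1, COBL9 and GL2) summed to 83.5 to 3299 FPKM in Protophlo, 144 to 1033 in CEI, 3.47 to 462 in SCN, 16.5 to 284 in QC, 5.68 to 130 in Epi/LRC, 6.18 to 121 in Xyl, 0.182 to 0.827 in CSCs and 456 to 805 in NSCs. Some genes listed here as markers of other types were also higher in CSCs than in NSCs. The 5 xylem markers summed to 59.6 to 144 FPKM in CSCs, against 24.9 to 66.6 in NSCs, but were split. Of these 5, 2 were called higher than in NSCs and 2 lower, with a median log2 fold change of -0.58. In CSCs and NSCs PHB averaged 28.5 and 3.83 FPKM, REV 26.3 and 7.19, T5L1 5.03 and 17.6 and VND7 0.055 and 5.72. TMO5 lay between 0 and 82 FPKM over the 3 CSCs samples. FEZ, the reporter gene of Epi/LRC, averaged 80.8 ± 26.9 FPKM in CSCs, against 1.32 ± 0.86 FPKM in NSCs. Whether this FEZ came from CSCs themselves or from other cells was not tested. The part that cells of other types play in the results below was not tested either. Over all genes tested, CEI replicate 2 correlated better with NSCs (mean r 0.907) than with its own group (0.819), as did SCN replicate 1 (0.820 and 0.800). Every SCN sample correlated better with QC (mean r 0.775 to 0.866) than with its own group (0.770 to 0.813). So did Epi/LRC replicate 1 (0.847 and 0.842) and replicate 3 (0.826 and 0.809).

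As a family the 9 genes were expressed at intermediate levels and most highly in CSCs. The summed level of the 9 genes averaged 191.8 ± 18.9 FPKM in CSCs, 133.7 ± 6.99 in Xyl, 118.4 ± 11.5 in Epi/LRC, 107.1 ± 23.0 in QC, 97.2 ± 26.4 in CEI, 92.2 ± 32.4 in SCN, 34.9 ± 9.99 in Protophlo and 47.3 ± 8.98 in NSCs (SD, n = 3 or 4). The lowest CSCs sample, at 172.6 FPKM, lay above the highest sample of every other population, 142.0 FPKM in Xyl. After division by median-of-ratios size factors the sums overlapped, with 123 to 150 in CSCs and 104 to 139 in Xyl. Over the 28 samples RBR1 had the highest median of the family, 18.8 FPKM, followed by DPA with 16.1 FPKM, and DEL2 had the lowest, 0.536 FPKM, with 11 samples listed at 0. In sorted bulk samples fewer cells of a type and less RNA per cell cannot be told apart.

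**Figure D1:**
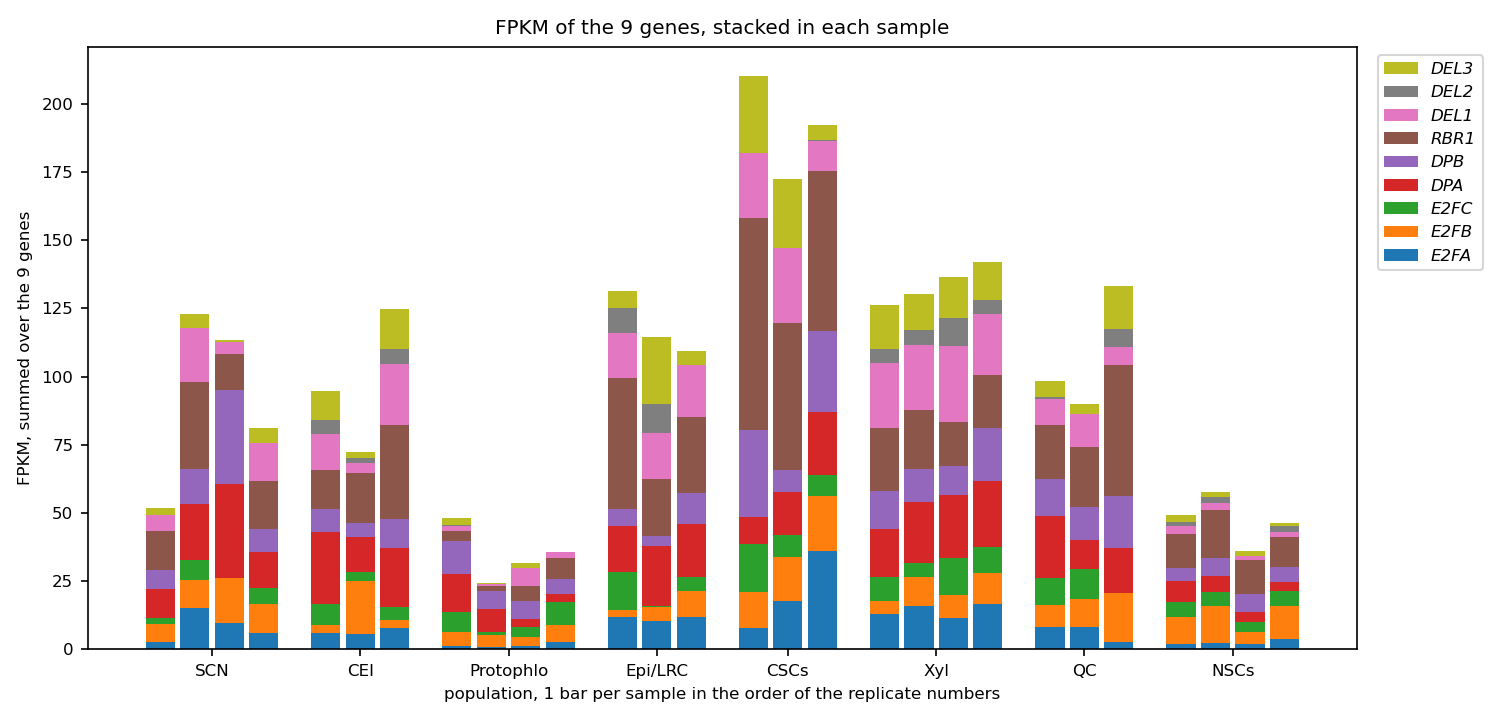
Stacked bars of the summed level of the 9 genes (FPKM, linear axis from 0) in each of the 28 samples, with the populations from left to right and NSCs last, and 1 colour for each gene. The 3 CSCs samples reach 172.6 to 210.4 FPKM and stand above all other samples in FPKM as deposited, though not after division by size factors, whereas Protophlo samples reach 24.3 to 48.2 and NSCs samples 36 to 57.7 FPKM.

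Against NSCs, 22 of the 63 combinations of gene and population were called higher and 1 was called lower, and these 7 comparisons share the same 4 NSCs samples. In CSCs, the samples with the xylem marker and FEZ levels given above, 6 of the 9 genes were higher, where 22.6% of all genes tested were. In Xyl 5 were higher against 20% of all genes, in Epi/LRC 5 against 12.5%, in SCN 2 against 5.52%, in CEI 2 against 5.37%, in QC 2 against 9.31% and in Protophlo none against 3.51%. The single lower call was RBR1 in Protophlo, where 10.5% of all genes were lower, against 8.89% in SCN, 5.04% in CEI, 16.6% in Epi/LRC, 18.3% in CSCs, 23.5% in Xyl and 9.49% in QC. With groups of 3 or 4 samples, every sample lay above every NSCs sample for 7 genes in CSCs (27.5% of all genes), 6 in Xyl (26.9%), 5 in Epi/LRC (19%), 5 in QC (20.8%), 3 in CEI (12.2%), 3 in SCN (7.06%) and none in Protophlo (8.58%). Every sample lay below every NSCs sample for 1 gene in SCN (13.8%), DEL2, and 1 in Protophlo (17.1%), RBR1. After division by size factors the genes wholly above NSCs were 4 in CSCs, without DPA, DPB and E2FC, and 4 in QC, without RBR1, and the other populations kept the same genes. The median log2 fold change of the 9 genes was 1.58 in CSCs, 1.67 in Xyl, 1.16 in Epi/LRC, 1.09 in CEI, 1.02 in QC, 0.42 in SCN and -0.53 in Protophlo. The same median over all genes tested was 0.08 in CSCs, -0.20 in Xyl, -0.05 in Epi/LRC, 0.02 in CEI, 0.12 in QC, 0.01 in SCN and -0.23 in Protophlo. After division by median-of-ratios size factors, higher genes made up 38.1% of all calls in CSCs in place of 55.2%, 29.7% in QC in place of 49.5% and 35.8% in Protophlo in place of 25.1%.

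Single libraries decided several of these counts. The CEI count of 2 was 0 without CEI replicate 1 or 3 and 1 without NSCs replicate 3 or 4, and the SCN count of 2 was 1 without SCN replicate 2 or NSCs replicate 3. In QC the count of 2 was 0 without QC replicate 1 or NSCs replicate 4, 1 without QC replicate 2, QC replicate 3 or NSCs replicate 3, 0 with size factors and 5 when QC was fitted with NSCs alone. The Epi/LRC count of 5 was 3 without NSCs replicate 3 or 4. Without the CEI replicate that resembled NSCs, replicate 2, 3 genes were higher in CEI, and DEL3 joined DPA and DEL1 with a log2 fold change of 2.22 (adjusted p = 0.0338).

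**Figure D2:**
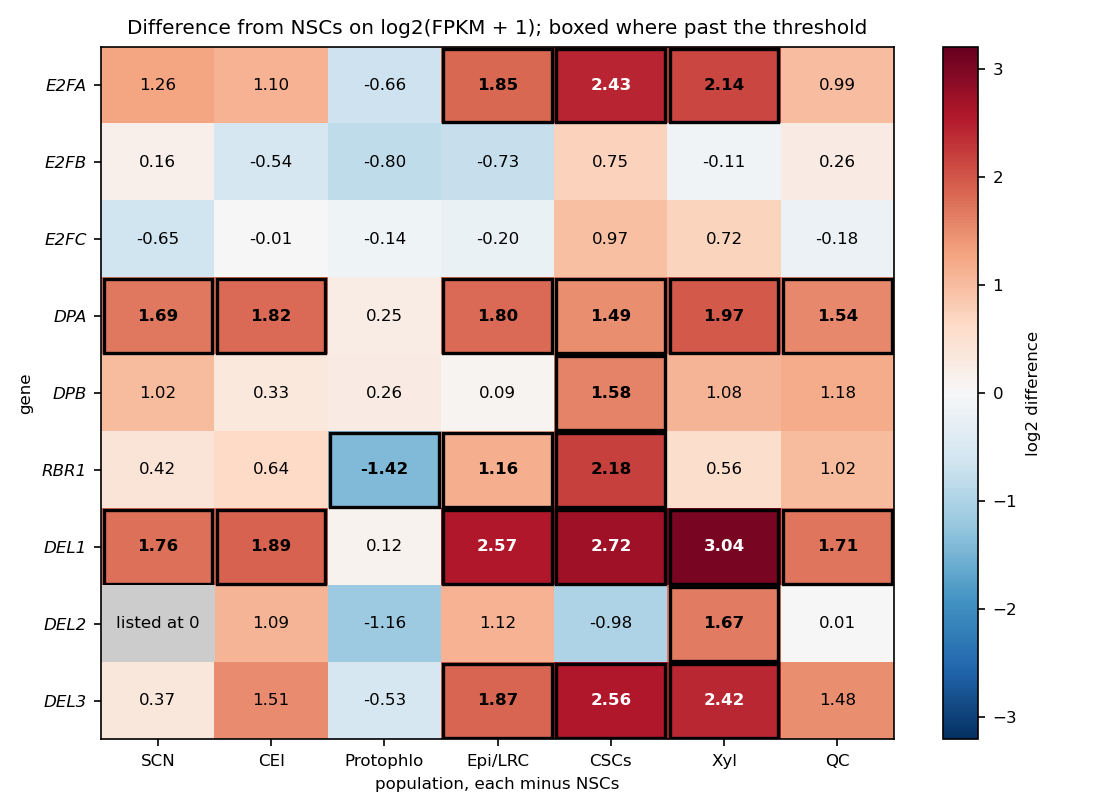
Heat map of the log2 fold change on the log2(FPKM + 1) scale of each of the 9 genes (down the page) in each of the 7 populations against NSCs (across), with called combinations marked. DEL1 and DPA are marked in 6 populations each, E2FB and E2FC in none, RBR1 in Protophlo is the only lower call, and the grey cell is DEL2 in SCN, where all samples were listed at 0.

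E2FA encodes the activator that binds DNA with a DP partner and, in a complex with RBR1, is known to delay the switch to endoreduplication. Its level was highest in CSCs and Xyl and lowest in Protophlo and NSCs. The values were 7.82, 17.8 and 35.9 FPKM in CSCs, 11.6, 10.2 and 11.9 in Epi/LRC, 12.8, 15.9, 11.4 and 16.5 in Xyl and 2, 2.15, 2.01 and 3.71 in NSCs. The Epi/LRC and Xyl samples were close together, the CSCs samples were spread widely, and none of the 3 populations overlapped NSCs. The log2 fold change of E2FA was 1.85 (adjusted p = 0.00748, SE 0.5) in Epi/LRC, 2.43 (adjusted p = 0.0005, SE 0.5) in CSCs and 2.14 (adjusted p = 0.00057, SE 0.46) in Xyl. These 3 calls were lost under none of the alternatives run. In the other populations E2FA had 5.82, 5.63 and 7.64 FPKM in CEI, 2.76, 14.9, 9.65 and 5.98 in SCN, 8.25, 8.14 and 2.68 in QC and 0.977, 0.624, 0.961 and 2.43 in Protophlo. CEI did not overlap NSCs and SCN overlapped them in its replicate 1 alone, yet neither passed the test, with 1.1 (adjusted p = 0.175, SE 0.5) in CEI and 1.26 (adjusted p = 0.0701, SE 0.46) in SCN. E2FA passed in SCN without SCN replicate 1, the library that resembled NSCs (1.64, adjusted p = 0.0165), and also, at an unchanged 1.26, without CSCs replicate 1 or 3 or QC replicate 3, with no filter and with no trend (adjusted p between 0.0504 and 0.0599), and as TPM (1.38, adjusted p = 0.057). The E2FA gene (chromosome 2, 15119516 to 15123184, plus strand, RefSeq annotation of TAIR10.1) overlaps its neighbour AT2G36020 by 65 bases on the opposite strand, and reads from these bases cannot be told apart unless strand was used, which is not given in the sources used here.

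**Figure D3:**
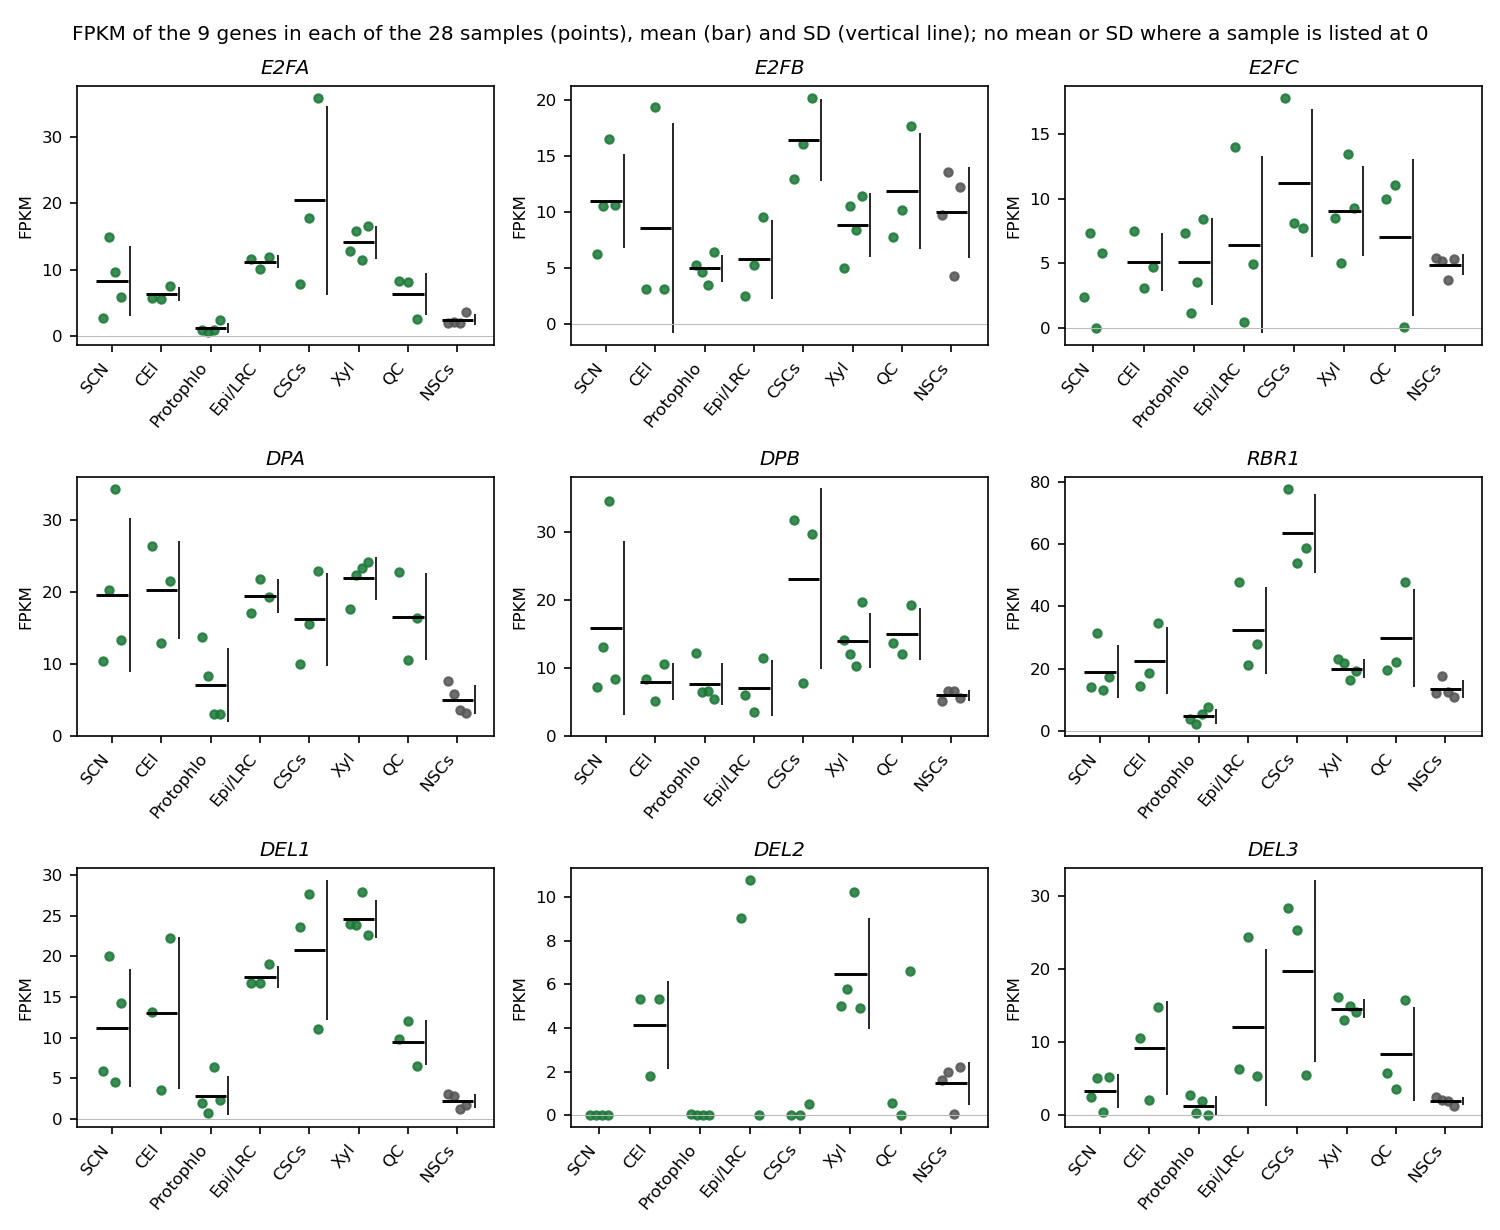
Level of each of the 9 genes (1 panel each) in every sample (points, FPKM, on the axis given in each panel) by population, with the mean as a bar and the SD as a vertical line where no sample was listed at 0, and NSCs at the right. RBR1 in CSCs (54 to 77.9 FPKM) and DEL1 in Xyl (22.7 to 28 FPKM) stand clear of NSCs, whereas E2FB and E2FC spread over the same range in most populations.

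E2FB, the activator known to promote division of meristem cells, and E2FC, the repressor, did not pass the test against NSCs in any population. E2FB ranged over 13 to 20.2 FPKM in CSCs, 7.79 to 17.8 in QC, 6.28 to 16.5 in SCN, 5 to 11.5 in Xyl, 3.14 to 19.4 in CEI, 2.55 to 9.55 in Epi/LRC, 3.54 to 6.42 in Protophlo and 4.3 to 13.6 in NSCs. All 7 populations overlapped NSCs. The widest spread was in CEI, whose values were 3.16, 19.4 and 3.14 FPKM, with the high value in replicate 2. Its difference from NSCs was 0.75 (95% confidence interval -0.33 to 1.83, adjusted p = 0.272) in CSCs and -0.8 (95% confidence interval -1.8 to 0.2, adjusted p = 0.302) in Protophlo on the log2 scale. Over all 8 populations the moderated F test of limma gave an adjusted p of 0.137 for E2FB and 0.599 for E2FC, whereas 61.2% of all genes tested fell under 0.06. Of the 28 pairs of populations, 1 was called for E2FB, with CSCs above Protophlo by 1.55 (adjusted p = 0.019, SE 0.52), where 28.8% of all genes were higher. This call was lost with size factors (0.86, adjusted p = 0.196) and without CSCs replicate 3 (1.4, adjusted p = 0.072).

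E2FC was uneven within populations. It had 17.8, 8.11 and 7.73 FPKM in CSCs, 8.54, 4.99, 13.5 and 9.3 in Xyl, 9.96, 11.1 and 0.0358 in QC, 14, 0.476 and 4.91 in Epi/LRC, 2.42, 7.32, 0 and 5.81 in SCN and 5.42, 5.16, 3.68 and 5.3 in NSCs. In QC and Epi/LRC 1 sample fell under 1 FPKM while another was above 9, and in SCN replicate 3 was listed at 0. The CSCs samples were all above NSCs without passing the test, at 0.97 (95% confidence interval -0.7 to 2.64, adjusted p = 0.365). In CEI it ranged over 3.06 to 7.52 FPKM and in Protophlo over 1.17 to 8.4 FPKM. None of the 28 pairs of populations was called for E2FC.

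DPA and DPB are the dimerisation partners of the typical E2Fs. DPA was higher than in NSCs in 6 of the 7 populations, more than any other member except DEL1. Its values were 17.6, 22.4, 23.4 and 24.3 FPKM in Xyl, 26.5, 13 and 21.6 in CEI, 10.5, 20.4, 34.4 and 13.3 in SCN, 17.1, 21.9 and 19.4 in Epi/LRC and 7.61, 5.85, 3.64 and 3.22 in NSCs. It had 22.8, 10.6 and 16.5 FPKM in QC, 10.03, 15.7 and 23 in CSCs and 13.9, 8.33, 3.12 and 3.03 in Protophlo. Every sample of the 6 populations lay above the highest NSCs sample, and Protophlo overlapped NSCs. The log2 fold change of DPA was 1.97 (adjusted p = 0.000608, SE 0.43) in Xyl, 1.82 (adjusted p = 0.0138, SE 0.46) in CEI, 1.8 (adjusted p = 0.00504, SE 0.46) in Epi/LRC, 1.69 (adjusted p = 0.00945, SE 0.43) in SCN, 1.54 (adjusted p = 0.0226, SE 0.46) in QC and 1.49 (adjusted p = 0.012, SE 0.46) in CSCs. Between the 6 populations the DPA means differed little, with 21.9 ± 2.96 FPKM (SD, n = 4) in Xyl at the top and 16.2 ± 6.5 FPKM (SD, n = 3) in CSCs at the bottom, a difference of 0.47 (95% confidence interval -0.48 to 1.42, adjusted p = 0.61) on the log2 scale. CSCs, which had the most RBR1, were thus the lowest of the 6 for DPA, although this difference did not pass the test. The calls in Xyl, Epi/LRC and SCN were kept under every alternative run. The CEI call was lost without CEI replicate 1 (1.61, adjusted p = 0.106) and without CEI replicate 3 (1.75, adjusted p = 0.096), and the QC call without NSCs replicate 4 (1.38, adjusted p = 0.0734), without QC replicate 1 (1.29, adjusted p = 0.099) and without QC replicate 3 (1.51, adjusted p = 0.069). The CSCs call was lost without CSCs replicate 3 (1.22, adjusted p = 0.0735), and size factors ended both the CSCs call (0.97, adjusted p = 0.0857) and the QC call (1.2, adjusted p = 0.0615).

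The 250 bases before the annotated start of DPA (chr5:544956-545205, minus strand, TAIR10.1) are shown because they hold a word of the kind bound by E2Fs, in capitals, in a gene that was higher in most populations. The capitals read CCGCCAAA, the reverse complement of TTTGGCGG, and begin 46 bases before the start.
DPA: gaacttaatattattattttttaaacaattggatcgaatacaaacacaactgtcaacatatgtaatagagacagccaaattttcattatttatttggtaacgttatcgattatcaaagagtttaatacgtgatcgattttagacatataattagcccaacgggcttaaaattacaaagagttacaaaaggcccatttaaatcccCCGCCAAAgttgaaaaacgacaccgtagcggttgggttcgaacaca
The words searched in each promoter were TTTCCCGC, TTTCGCGC, TTTGCCGC and TTTGGCGC on both strands. A second set with G as the last letter, TTTCCCGG, TTTCGCGG, TTTGCCGG and TTTGGCGG, was added after the promoters of the 9 genes had been read, and words of both sets can overlap in a promoter. The first set was present in 387 of 27443 promoters of this length (1.41%) and in 1 of the 9 genes, RBR1. The second was present in 410 of 27443 promoters (1.49%) and in 2 of the 9 genes, DPA and DEL2. A word is a match of letters and not a shown binding site.

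DPB differed from DPA in that it was called higher in CSCs alone. It had 31.8, 7.85 and 29.7 FPKM in CSCs, 13.6, 12 and 19.3 in QC, 14.1, 12, 10.4 and 19.7 in Xyl, 7.26, 13.1, 34.6 and 8.43 in SCN and 5.11, 6.66, 6.58 and 5.56 in NSCs. None of these 4 populations overlapped NSCs, although CSCs replicate 2 was low and SCN replicate 3 high within their groups. In the remaining populations DPB ranged over 5.11 to 10.6 FPKM in CEI, 3.57 to 11.5 in Epi/LRC and 5.46 to 12.2 in Protophlo, which overlapped NSCs. The log2 fold change of DPB was 1.58 (adjusted p = 0.0138, SE 0.5) in CSCs, and it missed the threshold in Xyl at 1.08 (adjusted p = 0.0608, SE 0.46) and in QC at 1.18 (adjusted p = 0.103, SE 0.5). The CSCs call was lost without CSCs replicate 1 (1.25, adjusted p = 0.0853) and without CSCs replicate 3 (1.3, adjusted p = 0.0794) and with size factors (1.04, adjusted p = 0.0818). In Xyl, DPB passed in 7 of the 28 fits that left out 1 sample, with adjusted p between 0.0353 and 0.0596, and also with NSCs alone, with the replicate block and with no trend (adjusted p = 0.00337, 0.05 and 0.054). In QC it passed with NSCs alone (adjusted p = 0.0207).

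In FPKM as deposited RBR1 was the only gene of the family for which 1 population lay wholly above all others. It had 77.9, 54 and 58.7 FPKM in CSCs, 48, 21 and 27.8 in Epi/LRC, 19.6, 22 and 48 in QC and 12.2, 17.5, 12.6 and 11 in NSCs. The lowest CSCs sample lay above every sample of the other 7 populations, and Epi/LRC and QC also lay wholly above NSCs. After division by size factors RBR1 ranged over 38.5 to 55.5 in CSCs, which overlapped Epi/LRC at 19.8 to 41.6, and QC overlapped NSCs. The other values were 14.2, 18.4 and 34.7 FPKM in CEI, 23, 21.6, 16.1 and 19.1 in Xyl, 14.2, 31.6, 13 and 17.3 in SCN and 3.64, 2.02, 5.44 and 7.49 in Protophlo. CEI, Xyl and SCN overlapped NSCs, whereas every Protophlo sample lay below every NSCs sample. RBR1 rose in CSCs, with a log2 fold change of 2.18 (adjusted p = 0.000215, SE 0.41), and in Epi/LRC, with 1.16 (adjusted p = 0.0359, SE 0.41), and it fell in Protophlo, with -1.42 (adjusted p = 0.0132, SE 0.38). In QC, where RBR1 is known to restrain division, the difference from NSCs was 1.02 (95% confidence interval 0.17 to 1.86, adjusted p = 0.0858) and did not pass, although it did in a fit with NSCs alone (adjusted p = 0.0534), and in Xyl it was 0.56 (95% confidence interval -0.22 to 1.34, adjusted p = 0.245). The Protophlo call was lost without Protophlo replicate 2 (-1.16, adjusted p = 0.0618). The Epi/LRC call was lost without Epi/LRC replicate 1 (0.84, adjusted p = 0.191), without NSCs replicate 1 (1.12, adjusted p = 0.0689), without NSCs replicate 3 (1.14, adjusted p = 0.0665) and without NSCs replicate 4 (1.08, adjusted p = 0.086) and with size factors (0.92, adjusted p = 0.0736), whereas no alternative ended the CSCs call.

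RBR1 also differed between stem cell types. It was higher in CSCs than in Protophlo by 3.6 (adjusted p = 5.88e-07, SE 0.41), than in SCN by 1.76 (adjusted p = 0.00512, SE 0.41), than in Xyl by 1.62 (adjusted p = 0.00843, SE 0.41) and than in CEI by 1.54 (adjusted p = 0.0207, SE 0.44) on the log2 scale. The difference of CSCs from Epi/LRC, 1.02 (95% confidence interval 0.12 to 1.92, adjusted p = 0.153), and from QC, 1.16 (95% confidence interval 0.26 to 2.06, adjusted p = 0.113), did not pass. RBR1 was the 1 gene of the 9 higher in CSCs than in Xyl, where 9.49% of all genes were, and the 1 higher in CSCs than in CEI, where 6.85% were. The call against CEI was lost without CEI replicate 1 (1.27, adjusted p = 0.0911), without CEI replicate 2 (1.45, adjusted p = 0.0733) and without CSCs replicate 1 (1.38, adjusted p = 0.0837) and with size factors (1.07, adjusted p = 0.0979). RBR1 made up 32.9 ± 3.55% of the summed FPKM of the 9 genes in CSCs, 15.0 ± 2.90% in Xyl and 28.4 ± 5.19% in NSCs (SD). Every Xyl sample had a lower share than every NSCs sample.

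The stretch before RBR1 (chr3:3919360-3919462, minus strand, TAIR10.1) is shown because RBR1 was the only member with a word of the first set. It covers the 103 bases between the start of RBR1 (chromosome 3, 3913349 to 3919359, minus strand) and the neighbouring gene AT3G12290. The word TTTCCCGC, in capitals, begins 76 bases before the start.
RBR1: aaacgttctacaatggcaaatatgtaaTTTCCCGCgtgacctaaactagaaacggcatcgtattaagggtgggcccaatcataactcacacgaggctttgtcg
RBR1 also overlaps the end of AT3G12270, on the opposite strand, by 28 bases, whose reads cannot be told apart without strand.

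DEL1 is known as a repressor of CCS52A2, an activator of the anaphase-promoting complex, and so as a brake on endoreduplication. It had the largest fold changes of the family against NSCs and, like DPA, was higher in 6 of the 7 populations. DEL1 had 24, 23.8, 28 and 22.7 FPKM in Xyl, 23.7, 27.7 and 11.1 in CSCs, 16.7, 16.8 and 19.1 in Epi/LRC and 3.03, 2.81, 1.22 and 1.74 in NSCs. It had 13.2, 3.61 and 22.3 FPKM in CEI, 5.88, 20.002, 4.54 and 14.3 in SCN, 9.79, 12 and 6.49 in QC and 1.97, 0.793, 6.38 and 2.36 in Protophlo. The 4 Xyl samples were close together and all 6 populations other than Protophlo lay wholly above NSCs, while CEI and SCN were uneven, with CEI replicate 2 the lowest of CEI. The log2 fold change of DEL1 was 3.04 (adjusted p = 3.36e-05, SE 0.5) in Xyl, 2.72 (adjusted p = 0.000346, SE 0.54) in CSCs, 2.57 (adjusted p = 0.00112, SE 0.54) in Epi/LRC, 1.89 (adjusted p = 0.027, SE 0.54) in CEI, 1.76 (adjusted p = 0.0195, SE 0.5) in SCN and 1.71 (adjusted p = 0.0286, SE 0.54) in QC. In Protophlo it was 0.12 (95% confidence interval -0.9 to 1.15, adjusted p = 0.912), with no call. The calls in Xyl, CSCs and Epi/LRC were kept under every alternative run. The CEI call was lost without CEI replicate 1 (1.74, adjusted p = 0.141), without CEI replicate 3 (1.38, adjusted p = 0.271), without NSCs replicate 3 (1.73, adjusted p = 0.071) and without NSCs replicate 4 (1.83, adjusted p = 0.0718), and the SCN call without NSCs replicate 3 (1.6, adjusted p = 0.0619) and without SCN replicate 2 (1.42, adjusted p = 0.0819). The QC call was lost without NSCs replicate 3 (1.55, adjusted p = 0.0756), without NSCs replicate 4 (1.65, adjusted p = 0.0706), without QC replicate 1 (1.67, adjusted p = 0.072) and without QC replicate 2 (1.53, adjusted p = 0.104) and with size factors (1.4, adjusted p = 0.0656).

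The 250 bases before DEL1 (chr3:17783081-17783330, plus strand, TAIR10.1) are shown beside those of DPA because both genes were higher in the same 6 populations, yet none of the 8 words was found in these letters.
DEL1: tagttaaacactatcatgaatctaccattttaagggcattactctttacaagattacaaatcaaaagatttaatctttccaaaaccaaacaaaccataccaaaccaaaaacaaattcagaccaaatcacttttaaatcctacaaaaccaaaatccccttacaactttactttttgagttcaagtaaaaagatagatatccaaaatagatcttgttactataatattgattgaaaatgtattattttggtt
Its last 307 bases (chromosome 3, 17783331 to 17786160, plus strand) overlap AT3G48170 on the opposite strand, the longest overlap of the 9 genes, so part of its FPKM cannot be assigned without strand.

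DEL2 was the weakest member and the one most often listed at 0. It had 4.99, 5.8, 10.2 and 4.91 FPKM in Xyl, 5.31, 1.82 and 5.33 in CEI, 9.03, 10.8 and 0 in Epi/LRC, 0.551, 0 and 6.63 in QC and 1.6, 1.98, 0.0544 and 2.2 in NSCs. It was listed at 0 in all 4 SCN samples, in 3 of 4 Protophlo samples (0.0622 FPKM in the other) and in 2 of 3 CSCs samples (0.522 FPKM in the other). Every Xyl and CEI sample was thus above 1 FPKM and no SCN, Protophlo or CSCs sample was. Against NSCs only Xyl was called, with a log2 fold change of 1.67 (adjusted p = 0.0301, SE 0.62), and this call was lost without NSCs replicate 3 (1.31, adjusted p = 0.12) and without Xyl replicate 3 (1.46, adjusted p = 0.088) and with a pseudocount of 0.1 (2.57, adjusted p = 0.11). In Epi/LRC DEL2 was not called at 1.12 (adjusted p = 0.226), but it passed without Epi/LRC replicate 3, the sample listed at 0 (2.27, adjusted p = 0.00685). DEL2 was the 1 member lower in CSCs than in Xyl, by a log2 difference of 2.65 (adjusted p = 0.0083, SE 0.67), where 3.34% of all genes were. It was also the 1 lower in CSCs than in CEI, by 2.07 (adjusted p = 0.056, SE 0.72), where 7.27% were. That call lay close to the threshold of 0.06, and no alternative fit is given for it. CSCs had the highest mean FPKM of RBR1, E2FA and DEL3 and little or no DEL2.

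DEL3, which in Arabidopsis is known to restrain cell expansion, was higher in CSCs, Xyl and Epi/LRC. DEL3 had 28.4, 25.4 and 5.46 FPKM in CSCs, 6.33, 24.4 and 5.36 in Epi/LRC, 16.2, 13.1, 14.9 and 14.1 in Xyl and 2.48, 2.07, 1.93 and 1.26 in NSCs. All samples of these 3 populations were above NSCs, evenly so in Xyl, while Epi/LRC replicate 2 was high and CSCs replicate 3 low within their groups. It had 10.6, 2.13 and 14.8 FPKM in CEI, 5.8, 3.66 and 15.8 in QC, 2.48, 5.15, 0.494 and 5.22 in SCN and 2.82, 0.349, 1.97 and 0.0618 in Protophlo. Of these, QC alone did not overlap NSCs. The log2 fold change of DEL3 was 1.87 (adjusted p = 0.0401, SE 0.68) in Epi/LRC, 2.56 (adjusted p = 0.00398, SE 0.68) in CSCs and 2.42 (adjusted p = 0.00276, SE 0.63) in Xyl. The Epi/LRC call was lost without Epi/LRC replicate 2 (1.23, adjusted p = 0.257), without NSCs replicate 2 (1.89, adjusted p = 0.0644), without NSCs replicate 3 (1.87, adjusted p = 0.0674) and without NSCs replicate 4 (1.75, adjusted p = 0.0923), with a pseudocount of 0.1 (2.26, adjusted p = 0.0838) and with the replicate block (1.82, adjusted p = 0.0684). DEL3 was also higher in CSCs than in SCN, by 2.19 (adjusted p = 0.0296, SE 0.68), and in Xyl than in SCN, by 2.05 (adjusted p = 0.0206, SE 0.63). Of these, the Xyl difference was lost without SCN replicate 3 (1.6, adjusted p = 0.0746), and the CSCs difference without CSCs replicate 1 (1.8, adjusted p = 0.131), without CSCs replicate 2 (1.87, adjusted p = 0.113), without SCN replicate 1 (2.15, adjusted p = 0.0631) and without SCN replicate 3 (1.74, adjusted p = 0.0825), with size factors (1.8, adjusted p = 0.0757) and with a pseudocount of 0.1 (2.64, adjusted p = 0.071).

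By mean FPKM the order of the populations differed between members. CSCs came first for E2FA, E2FB, E2FC, DPB, RBR1 and DEL3, Xyl for DPA and DEL1, and Epi/LRC for DEL2, where 1 of 3 samples was listed at 0. NSCs came last for DPA, DPB and DEL1, Protophlo for E2FA, E2FB, RBR1 and DEL3, and SCN for E2FC and DEL2. Of the 7 pairs of neighbours in each of the 9 orders, 3 passed the test. Neighbours were picked by the order of the same means, which makes their differences small by choice. The count therefore does not show how far the populations differ, and its share over all genes was not worked out. DPA was higher in CSCs than in Protophlo by 1.24 (adjusted p = 0.0313, SE 0.46), where 28.8% of all genes were. DEL1 was higher in QC than in Protophlo by 1.59 (adjusted p = 0.0398, SE 0.54), where 15.5% were. RBR1 was lower in Protophlo than in NSCs, as given above, where 10.5% were. All other neighbours did not pass. The DPA difference was lost without CSCs replicate 2 (1.23, adjusted p = 0.07), without CSCs replicate 3 (0.97, adjusted p = 0.15), without Protophlo replicate 3 (0.99, adjusted p = 0.0999) and without Protophlo replicate 4 (0.98, adjusted p = 0.101), with size factors (0.56, adjusted p = 0.326) and with the replicate block (1.12, adjusted p = 0.0656). The DEL1 difference was lost without Protophlo replicate 1 (1.52, adjusted p = 0.0721), without Protophlo replicate 2 (1.28, adjusted p = 0.13), without Protophlo replicate 4 (1.58, adjusted p = 0.067), without QC replicate 1 (1.54, adjusted p = 0.096) and without QC replicate 2 (1.41, adjusted p = 0.129), with size factors (1.15, adjusted p = 0.133) and with the replicate block (1.61, adjusted p = 0.0655).

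The population labelled Protophlo, whose markers went against that label as given above, had the lowest summed level of the family. This did not hold for every member by mean FPKM. E2FC averaged 5.13 in Protophlo and 3.89 in SCN, and DPB 7.67 in Protophlo and 7.04 in Epi/LRC. In CSCs 7 of the 9 genes were higher than in Protophlo, where 28.8% of all genes were, and in Xyl 6 were (24.7%). In Epi/LRC 6 were higher than in Protophlo (17.6%), in CEI 6 (12.4%), in QC 5 (15.5%) and in SCN 4 (9.03%). None of the 9 was called higher in Protophlo than in any of these, where the share of all genes was 14.8% against CSCs, 19.3% against Xyl, 10.7% against Epi/LRC, 1.63% against CEI, 4.77% against QC and 1.14% against SCN. Among the 6 populations other than Protophlo and NSCs fewer members separated. In CSCs 2 genes were higher than in SCN (9.64%), RBR1 and DEL3, and in Xyl 2 were higher than in SCN (11.6%), DEL2 and DEL3. Several of these counts rested on single libraries. The CEI count of 6 was 1 without CEI replicate 1 or 3, the CSCs count of 7 was 4 without CSCs replicate 3 and 4 with size factors, and the SCN count of 4 was 1 without SCN replicate 2, 2 without Protophlo replicate 4 and 2 with size factors. The QC count of 5 was 1 without QC replicate 1, 2 without Protophlo replicate 2 or 4, 3 without QC replicate 2 or 3, 1 with size factors and 2 with the replicate block. The count of CSCs over SCN was 1 without CSCs replicate 2, SCN replicate 1 or SCN replicate 3, and that of Xyl over SCN was 1 without SCN replicate 3. In Epi/LRC and Xyl no alternative moved the count over Protophlo by more than 1.5 times.

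QC cells divide rarely, so QC was set against the mean of CEI, Protophlo, Epi/LRC, CSCs and Xyl. None of the 9 genes was called in either direction, where 1.56% of all genes were higher in QC and 0.375% lower. At an unadjusted p under 0.05 the count was also 0. With such low shares, no call is the likely outcome for 9 genes, so the lack of calls says little about QC. The mean also takes in Protophlo, over which 5 of the 9 were higher in QC (15.5% of all genes). The log2 differences ran between -0.45 (95% confidence interval -1.82 to 0.93, adjusted p = 0.803) for E2FC and 0.55 (95% confidence interval -0.34 to 1.43, adjusted p = 0.603) for E2FB. RBR1 averaged 29.9 ± 15.7 FPKM (SD, n = 3) in QC, against 28.6 FPKM over the other types, and E2FA 6.36 ± 3.19 FPKM (SD, n = 3) in QC, against 10.7 FPKM. The E2FC difference turned to 0.71 (adjusted p = 0.818) without QC replicate 3, the sample with 0.0358 FPKM.

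The genes around the family were described as 6 lists of 69 genes in all, each by its calls in CSCs, where most members were called and 22.6% of all genes were higher and 18.3% lower. Of the 11 D-type cyclins and CDKA;1, which phosphorylate RBR1, 4 were higher and none lower in CSCs, with a list median of 0.71 on the log2 scale. CDKA;1 averaged 51.5 ± 16.5 FPKM in CSCs, against 23.6 ± 8.33 FPKM in NSCs (log2 fold change 1.12, adjusted p = 0.0277, SE 0.4), and CYCD3;3, a cyclin of dividing cells, 81.7 ± 11 FPKM in CSCs, against 9.77 ± 2.8 FPKM in NSCs (log2 fold change 2.97, adjusted p = 0.000493, SE 0.61). CYCD6;1, the cyclin of the formative division of CEI cells, averaged 15.7 ± 8.92 FPKM in CSCs, against 1.24 ± 0.563 FPKM in NSCs (log2 fold change 2.76, adjusted p = 0.0073, SE 0.79). In CEI, the population sorted with its reporter, CYCD6;1 ranged over 1.48 to 22.7 FPKM, against 0.530 to 1.76 in NSCs, and was not called (adjusted p = 0.325). The CDKA;1 call was lost without CSCs replicate 2 (0.88, adjusted p = 0.132) and without NSCs replicate 4 (0.9, adjusted p = 0.1) and with size factors (0.55, adjusted p = 0.274), and the CYCD6;1 call with a pseudocount of 0.1 (3.48, adjusted p = 0.0869).

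The CDK inhibitors split, with 2 of 8 higher and 3 lower in CSCs and a median of -1.07. KRP7 averaged 33.8 ± 15 FPKM in CSCs, against 6.3 ± 1.44 FPKM in NSCs (log2 fold change 2.18, adjusted p = 0.0101, SE 0.66). SIM, an inhibitor known to promote endoreduplication, averaged 0.0954 ± 0.083 FPKM in CSCs, against 28.7 ± 4.38 FPKM in NSCs (log2 fold change -4.75, adjusted p = 5.58e-05, SE 0.79). Of 5 genes of protein turnover in the pathway 2 were higher and 1 lower, with a median of 1.12. SKP2B, which encodes an F-box protein, averaged 8.17 ± 7.4 FPKM in CSCs, against 50.7 ± 8.37 FPKM in NSCs (log2 fold change -2.86, adjusted p = 0.00053, SE 0.59) and was lower in all 7 populations. CCS52A2, the gene that DEL1 is known to repress, averaged 24.3 ± 1.79 FPKM in CSCs, against 5.64 ± 2.53 FPKM in NSCs (log2 fold change 2.03, adjusted p = 0.00696, SE 0.58), so both were higher in CSCs. The count of higher CDK inhibitors was 1 with size factors, without CSCs replicate 3 and without NSCs replicate 1 or 4, and that of turnover genes was 1 with size factors and without NSCs replicate 3.

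Of 23 S-phase genes known as E2F targets, 18 were higher and none lower in CSCs, with a median log2 fold change of 2.76, against 0.08 over all genes. In Xyl 16 were higher (20% of all genes), with a median of 2.14, and in Epi/LRC 14 (12.5%), with a median of 2.02. SCN had 12 higher (5.52%), CEI 9 (5.37%), QC 9 (9.31%) and Protophlo none, with 2 lower (10.5%). The called gene with the smallest fold change in CSCs, ORC3 of the origin recognition complex, averaged 13.7 ± 3.33 FPKM in CSCs, against 2.94 ± 1.31 FPKM in NSCs (log2 fold change 1.95, adjusted p = 0.00573, SE 0.54), and the one with the largest, RNR1, a subunit of ribonucleotide reductase, 79.2 ± 26.6 FPKM in CSCs, against 4.96 ± 2.69 FPKM in NSCs (log2 fold change 3.82, adjusted p = 1.75e-05, SE 0.57). The CEI count of 9 was 2 without CEI replicate 3, 3 without CEI replicate 1, 5 without NSCs replicate 4 and 17 without CEI replicate 2, the library that resembled NSCs. The SCN count of 12 was 5 to 7 without SCN replicate 2, 3 or 4 or NSCs replicate 3 or 4, and the QC count of 9 was 5 without NSCs replicate 4. The 2 lower genes in Protophlo became 0 without NSCs replicate 1 or 2, 1 without Protophlo replicate 1 or 2, NSCs replicate 3 or any Xyl replicate, and 4 without Protophlo replicate 4 or SCN replicate 1.

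**Figure D4:**
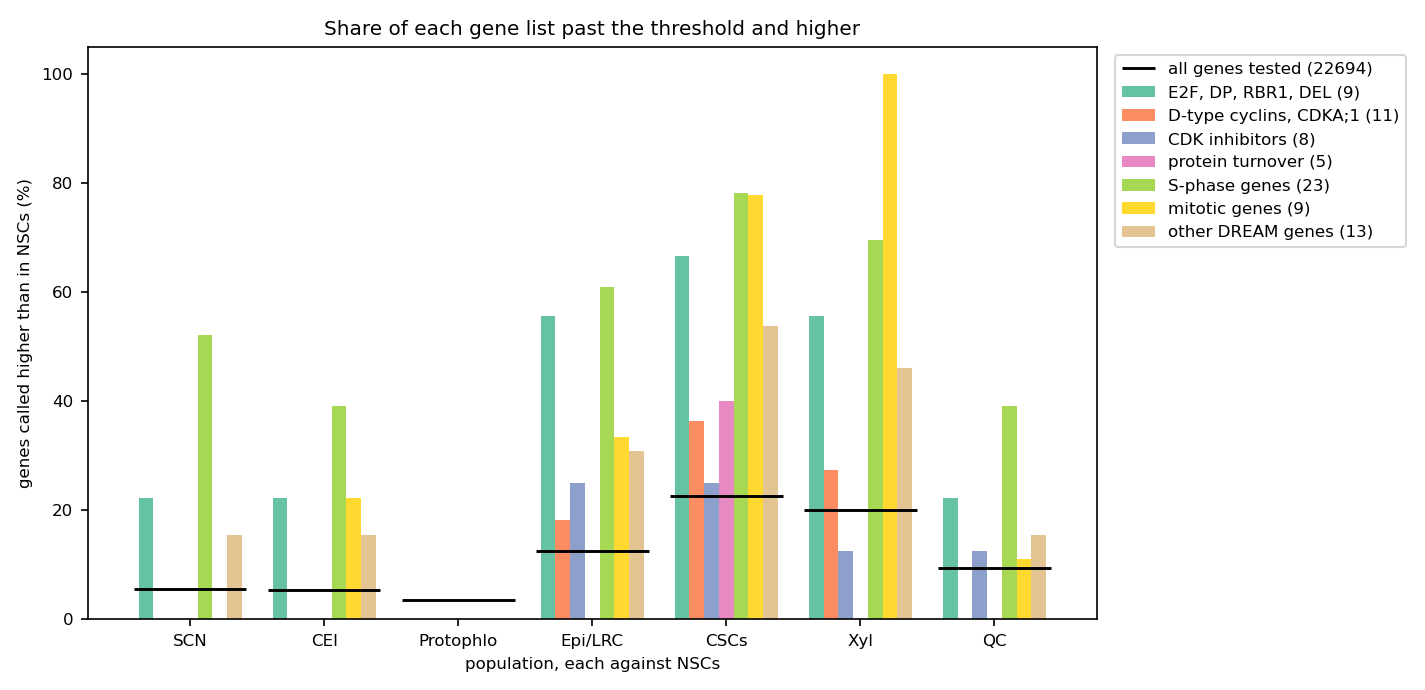
Share of each list called higher than in NSCs (percent, axis from 0) in each of the 7 populations, with the 9 family members first and the share of all genes tested for comparison. The S-phase list reaches 18 of 23 genes in CSCs and the mitotic list 9 of 9 in Xyl, while both have no higher gene in Protophlo.

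The first set of words was present in the promoters of 10 of these 23 S-phase genes (43.5%, against 1.41% of all promoters) and the second in 5 (21.7%). Of the 11 D-type cyclins and CDKA;1, only CYCD3;3 had a word of the first set (1 of 11), and none had 1 of the second. Of the 13 other DREAM genes, only TCX2 had a word of the first set (1 of 13), and 1 had a word of the second. Windows around words of the first set, in capitals with 10 bases on each side, are shown to set RBR1 beside genes that were measured with it. They are ORC3 (chr5:5474306-5474333, plus strand), MCM5 (chr2:3527502-3527529, minus strand) and MCM6 (chr5:18010696-18010723, minus strand), which encode replication proteins, CYCD3;3 (chr3:18566921-18566948, minus strand), TCX2 (chr4:8484991-8485018, minus strand) and RBR1 itself (chr3:3919418-3919445, minus strand).
ORC3: ggtcacgaatTTTCCCGCcaaaaagagc
MCM5: ggcccatcagTTTCCCGCcacattgttc
MCM6: atactttttaGCGGGAAAatgttagagg
CYCD3;3: attttctcgcGCGCCAAAcatccgaata
TCX2: atagtccccaTTTCCCGCctttgctatt
RBR1: aaatatgtaaTTTCCCGCgtgacctaaa
ORC3, MCM5, TCX2 and RBR1 read TTTCCCGC, MCM6 has the same word on the other strand, and CYCD3;3 reads GCGCCAAA, the reverse complement of TTTGGCGC. No word of either set was found before the 8 CDK inhibitors, the 5 turnover genes or the 9 mitotic genes, which says only that these letters were not in those 250 bases.

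Of 9 mitotic genes 7 were higher in CSCs, with a median log2 fold change of 3.28, and all 9 in Xyl, with a median of 4.63. CYCB1;1, a B-type cyclin of the entry into mitosis, averaged 48 ± 24.5 FPKM in CSCs, against 2.34 ± 1.34 FPKM in NSCs (log2 fold change 3.84, adjusted p = 0.00252, SE 0.96), and CYCB2;2, the called gene with the smallest change, 18.4 ± 6.11 FPKM in CSCs, against 2.65 ± 1.07 FPKM in NSCs (log2 fold change 2.41, adjusted p = 0.032, SE 0.89). The CSCs count was 4 with a pseudocount of 0.1 and 4 without CSCs replicate 1. Of the 13 other genes of the DREAM complex 7 were higher in CSCs and 6 in Xyl, with medians of 1.43 and 1.63. TCX2, the CPP family gene that the study followed, averaged 18.3 ± 12.6 FPKM in CSCs, against 2.09 ± 0.592 FPKM in NSCs (log2 fold change 2.47, adjusted p = 0.00529, SE 0.68), and 40.3 ± 6.11 FPKM in Xyl, with a log2 fold change of 3.75 there (adjusted p = 4.13e-05). TCX5 averaged 13.2 ± 0.624 FPKM in CSCs, against 4.3 ± 0.866 FPKM in NSCs (log2 fold change 1.43, adjusted p = 0.0265, SE 0.51) and SOL1 23.1 ± 15.3 FPKM in CSCs, against 0.593 ± 0.425 FPKM in NSCs (log2 fold change 3.65, adjusted p = 0.000355, SE 0.73). The DREAM count in CSCs was 4 with a pseudocount of 0.1. The CYCB2;2 call was lost without CSCs replicate 1 (2.28, adjusted p = 0.0868), without CSCs replicate 2 (2.25, adjusted p = 0.0884) and without NSCs replicate 4 (2.18, adjusted p = 0.0822) and with size factors (1.9, adjusted p = 0.09) or a pseudocount of 0.1 (2.8, adjusted p = 0.108). The TCX5 call was lost without CSCs replicate 1 (1.41, adjusted p = 0.063), without CSCs replicate 2 (1.42, adjusted p = 0.0609) and without NSCs replicate 3 (1.32, adjusted p = 0.0644) and with size factors (0.91, adjusted p = 0.149) or a pseudocount of 0.1 (1.62, adjusted p = 0.0617).

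Across the 28 samples several members had like patterns. The correlations below are across samples that share their sort, library and population, are given as descriptions of log2(FPKM + 1), and carry no test. Pearson's r was 0.83 between DEL1 and DEL3, 0.80 between E2FA and DEL1, 0.73 between E2FA and RBR1, 0.70 between E2FA and DPA and 0.69 between RBR1 and DEL1. After the population means were removed, r was 0.60 between DEL1 and DEL3, 0.15 between E2FA and DEL1 and 0.09 between E2FA and RBR1, so the likeness of both E2FA pairs lay mainly between populations, while DEL1 and DEL3 were also alike between replicates. E2FB, E2FC and DEL2 had lower r to E2FA, of 0.33, 0.31 and 0.27.

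**Figure D5:**
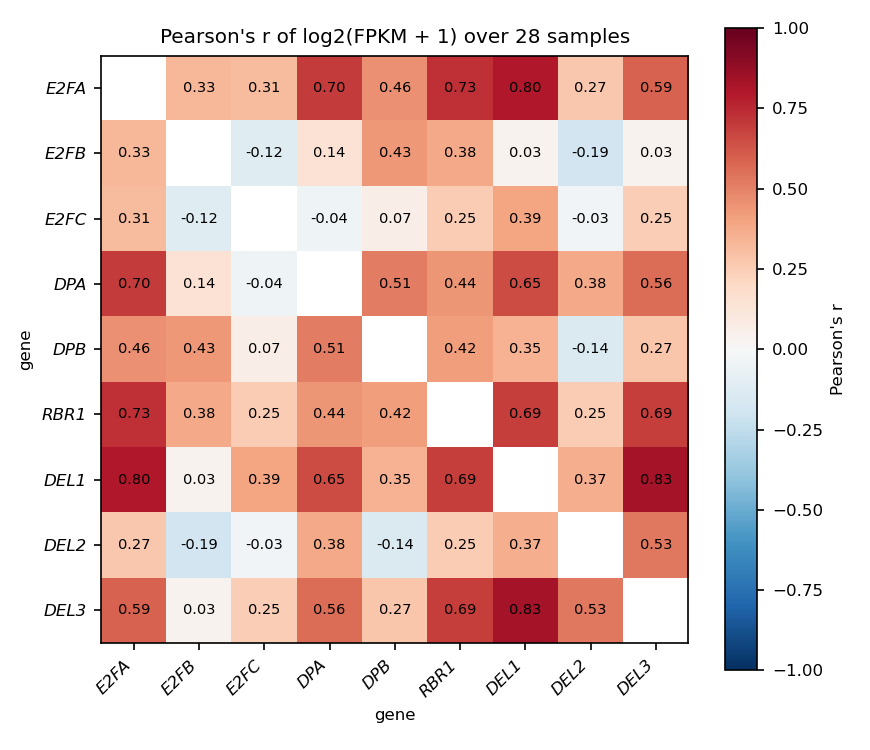
Pearson's r of log2(FPKM + 1) between each pair of the 9 genes over the 28 samples, as a colour scale with the value in each cell. The DEL1 and DEL3 pair is highest at 0.83, and E2FB, E2FC and DEL2 have lower values with most other members.

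Among all genes tested, those with the pattern most like a member over the 28 samples were mostly genes with no symbol in the annotation used. For E2FA they were AT2G41620 (r = 0.91), AT3G06200 (0.90) and MCM7, a subunit of the replication helicase, also called PROLIFERA (0.90). For RBR1 they were DCL4, a dicer-like ribonuclease (0.88), CLASP, a microtubule-associated protein (0.86), and INV-E, an invertase (0.86). DEL1 was most like SR45, a splicing factor (0.94), AT3G02530 (0.92) and AT1G09620 (0.92), and DEL3 most like AT5G16950 (0.92), AT1G26170 (0.92) and AGL26, a MADS-box gene (0.91). DPA was most like AT3G10530 (0.91), AT5G02870 (0.89) and NERD, known for a role in DNA methylation (0.89). DPB was most like AT5G06220 (0.86), CYP712A1, a cytochrome P450 (0.84), and RARE1, named for a role in RNA editing (0.83). The leading genes were weaker for the 3 remaining members. E2FC had FRS3 (0.80), AT1G34630 (0.78) and AT1G02960 (0.78), DEL2 had AT3G47840 (0.80), AT3G23330 (0.79) and OTP86 (0.78), and E2FB had AT5G22450 (0.77), AT1G77220 (0.76) and AT1G19000 (0.75).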

How the data were processed

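Cells were sorted from protoplasts of root tips of fluorescent reporter lines. RNA was amplified with the SMARTer Low Input kit and sequenced, 3 or 4 biological replicates a population. The authors deposited 1 table of FPKM values for 33201 genes. GEO's processing notes name the genome build TAIR10, TopHat2 2.0.13 and Cufflinks 2.1.1. The CEI columns are headed only by the letter C and a number and were taken as CYCD6:GFP, since the columns of CVP2 carry that name in full. The strand setting and the number of reads are not given in the sources used here, so no count test could be run, and the count-based test of the study was replaced by limma 3.58.1 (R 4.3.3). Values as log2(FPKM + 1), for 22694 genes with at least 1 FPKM in at least 3 samples, were fitted with a mean for each of 8 populations and empirical Bayes with trend. Contrasts with NSCs, between pairs of populations and of QC against the other types were adjusted within each contrast over all genes tested (Benjamini-Hochberg, called under 0.06 and above 2-fold). The fit was tested on simulated data with known changes, placed in Xyl alone. The changed genes had a mean log2(FPKM + 1) above 2 in NSCs and an SD under 1. The simulation therefore did not cover genes as low in NSCs as E2FA, DEL1, DEL2 and DEL3, or changes in groups of 3.

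All members were named. In the 6 pathway lists TCX2, CDKA;1, CYCD6;1 and, in each list, the called genes with the largest and smallest fold change in the population with most member calls (CSCs) were named. The 3 tested genes most correlated with each member were also named. Members and lists were chosen with earlier results of these data known. Alternatives were a pseudocount of 0.1, no filter on low values (31526 genes), median-of-ratios size factors, TPM, a fit with NSCs alone, a replicate block, no trend, and each of the 28 samples left out in turn. For the pathway lists, their genes and the pairs of populations the same alternatives were chosen after seeing the data, as were the FPKM ranges after division by size factors. Promoters were the 250 bases before the annotated start of each gene in the RefSeq annotation of TAIR10.1. All 9 gene identifiers matched. Tables and figures used Python 3.11.15 with numpy 2.4.6, pandas 2.3.3 and matplotlib 3.10.9.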

Additional observations from a re-analysis of the deposited data

Results flagged for a closer look

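Of 36 groups of 4 samples, 2 had at least 3 samples listed at 0, where Dixon's test can tell nothing. In 4 of the other 34 groups 1 sample stood far from the other 3 by that test, which chance does in about 1 group in 20. E2FA was high in NSCs replicate 4, at 3.71 FPKM. E2FC was low in NSCs replicate 3, at 3.68 FPKM. DPB was high in Protophlo replicate 1, at 12.2 FPKM. DEL2 was high in Xyl replicate 3, at 10.2 FPKM. In Protophlo DEL2 was at 0.0622 FPKM in replicate 1 with the other 3 listed at 0, so that this value would stand apart at any size above 0. RBR1 moved in opposite directions against the same NSCs samples, and the difference itself was tested. It was higher in Epi/LRC than in Protophlo by 2.58 and higher in CSCs than in Protophlo by 3.60 on the log2 scale (adjusted p = 0.000148 and 5.88e-07, limma), with every Epi/LRC and CSCs sample above every Protophlo sample.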

How the results depend on the processing

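Of the 23 calls against NSCs, 12 were kept in every fit that left out 1 sample, and 16 under all 7 other alternatives. The 22 higher calls became 20 with a pseudocount of 0.1, 17 with size factors, 27 with NSCs alone and 16 to 24 when 1 sample was left out. Size factors moved the median of all genes by -0.30 in CSCs and -0.22 in QC, and left no member higher in QC (0). With NSCs alone 5 members were higher in QC and 2 lower in Protophlo. Leaving out 1 sample gave 1 to 3 members higher in SCN, 0 to 3 in CEI, 3 to 6 in Epi/LRC, 4 to 6 in CSCs, 4 to 6 in Xyl and 0 to 2 in QC, and 0 to 1 lower in Protophlo. Of the lists, the S-phase count was 6 in SCN, 5 in CEI and 7 lower in Protophlo with a pseudocount of 0.1, 14 in CEI with NSCs alone and 1 lower in Protophlo with the replicate block. In CSCs 4 mitotic and 4 DREAM genes were higher with a pseudocount of 0.1, and 1 CDK inhibitor and 1 turnover gene with size factors. Over Protophlo the members called were 2 in SCN, 4 in CSCs and 1 in QC with size factors and 2 in QC with the replicate block, and 1 to 4 in SCN, 1 to 6 in CEI, 4 to 7 in CSCs and 1 to 5 in QC when 1 sample was left out. Over SCN, 1 was called in CSCs with a pseudocount of 0.1 or size factors, and 1 to 3 in CSCs and in Xyl when 1 sample was left out. Leaving out 1 sample gave 5 to 17 S-phase genes higher in SCN, 2 to 17 in CEI, 5 to 12 in QC and 0 to 4 lower in Protophlo, and in CSCs 4 to 8 mitotic genes, 1 to 2 CDK inhibitors and 1 to 3 turnover genes higher. DPB in Epi/LRC, not called at 0.09, turned to -0.12 with size factors and ran from -0.29 (without Epi/LRC replicate 3) to 0.43 when 1 sample was left out. E2FC in QC against the other types, not called at -0.45, ran from -1.06 to 0.71 (without QC replicate 3). After removal of the population means, same-numbered samples of a population and NSCs correlated at -0.18 to 0.13. No population had every r above 0.1. SCN and NSCs came from the same line, with r of -0.01 to 0.12. Such an r cannot show whether same-numbered samples were sorted together. No fit paired SCN with NSCs. With the replicate block 22 calls were higher and 1 lower, DPB in Xyl passed (adjusted p = 0.05) and DEL3 in Epi/LRC did not. The cause of these changes was not tested, and without read counts the limits set by depth are unknown.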
